A study of Mus musculus with 8 samples.

Results

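The unfolded protein response and the targets of the transcription factor ATF4 were examined in KPCY mouse pancreatic cancer cells in which miR-27a was inhibited. The gene set held 33 genes, found by their symbols among the 24421 rows of the deposited count table, and all 33 passed the filter on low counts. By role it comprised 13 chaperones and folding enzymes of the endoplasmic reticulum (ER), 2 genes of ER-associated degradation (ERAD), 5 sensors and transcription factors, and 13 targets of ATF4. The inhibited cells were a stable line of KPCY cells, labelled male, transduced with a lentiviral vector that inhibits miR-27a-3p (miR-27a KD, 4 libraries). They were set against a line of the same cells transduced with a scrambled sequence (Scr, 4 libraries). Both lines had been selected with 2 µg/mL puromycin for 7 days and grown at 4.5 g/L glucose with 10% serum before RNA was isolated at 24 hours from seeding. Each group rests on 1 stable line, the alleles behind the name KPCY are not listed in the labels, and the 4 libraries of a line are labelled as biological replicates; p-values here therefore reflect variation among libraries of 1 line, and an effect of the inhibitor cannot be told apart from a difference between the 2 lines.

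The unfolded protein response adjusts the protein-folding capacity of the ER. When unfolded proteins accumulate in its lumen, the chaperone BiP leaves 3 membrane sensors. IRE1 splices the Xbp1 mRNA, ATF6 is cut to release a transcription factor, and PERK phosphorylates eIF2α, which lowers protein synthesis overall and raises translation of ATF4. ATF6 and XBP1 act on chaperone promoters through the ER stress response element (ERSE), whereas ATF4 acts through a C/EBP-ATF response element (CARE) at genes of amino acid synthesis and transport, redox balance and feedback on eIF2α. ATF4 is also reached through other eIF2α kinases, for example when amino acids are short, so that chaperones and ATF4 targets can move separately. Secretory cells such as those of the exocrine pancreas depend strongly on this response.

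The letters of these elements were searched in RefSeq promoter windows of GRCm38.p6, each running from 250 bases before to 50 bases after an annotated start site, and 26 of the 33 genes had at least 1 window (28 windows in all). The ERSE, spelled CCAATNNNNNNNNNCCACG and searched on both strands, was present in 7 of the 11 chaperone windows, against 39 of all 32851 windows (0.119%). It was found in no window of the ATF4 targets, the ERAD genes or the sensors. The matches are shown because the chaperones that hold them are compared below; the capitals mark the fixed letters, and each match is written in the direction of the motif.
Hspa5, bases -65 to -47 from the start site: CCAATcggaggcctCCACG
Hsp90b1, bases -212 to -194: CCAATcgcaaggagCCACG
Hsp90b1, bases -107 to -89, on the opposite strand: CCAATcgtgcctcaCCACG
Calr, bases -162 to -144, on the opposite strand: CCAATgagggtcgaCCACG
Canx, bases -145 to -127: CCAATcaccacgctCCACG
Pdia6, bases -98 to -80: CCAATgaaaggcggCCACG
Dnajc3, bases -105 to -87: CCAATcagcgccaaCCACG
Creld2, bases -126 to -108, on the opposite strand: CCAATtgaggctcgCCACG
The CARE letters TTGCATCA were found in the windows of Chac1, Nupr1 and Herpud1, and in 294 of all 32851 windows (0.895%). The shorter ERSE-II, ATTGGNCCACG, was found in Herpud1 alone among these genes and in 0.0365% of all windows. The letters TGACGTGG, a core of the XBP1-bound unfolded protein response element, occurred in none of the 28 windows and in 0.676% of all.

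The 250 bases before the start site are shown for 4 genes: Hspa5, with the ERSE, and the 3 genes with the CARE. Each is written 5′ to 3′ in the direction of the gene, from RefSeq on GRCm38.p6, with the matched letters in capitals.
Hspa5 (chr2:34771840-34772089, + strand, ERSE): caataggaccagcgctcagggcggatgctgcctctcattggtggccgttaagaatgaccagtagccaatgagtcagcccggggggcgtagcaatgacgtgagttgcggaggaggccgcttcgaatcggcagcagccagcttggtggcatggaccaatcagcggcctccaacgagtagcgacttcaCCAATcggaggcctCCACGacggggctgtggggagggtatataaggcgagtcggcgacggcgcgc
Herpud1 (chr8:94386179-94386428, + strand, CARE then ERSE-II): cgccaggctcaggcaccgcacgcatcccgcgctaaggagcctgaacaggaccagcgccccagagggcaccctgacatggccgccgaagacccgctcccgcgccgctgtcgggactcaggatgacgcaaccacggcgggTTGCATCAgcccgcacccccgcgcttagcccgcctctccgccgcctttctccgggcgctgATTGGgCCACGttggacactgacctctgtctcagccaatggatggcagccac
Chac1 (chr2:119350992-119351241, + strand, CARE): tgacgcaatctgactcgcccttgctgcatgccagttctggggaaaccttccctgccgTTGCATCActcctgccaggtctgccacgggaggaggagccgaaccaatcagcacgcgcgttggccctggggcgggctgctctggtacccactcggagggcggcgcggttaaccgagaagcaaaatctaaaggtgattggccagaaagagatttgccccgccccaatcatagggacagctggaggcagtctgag
Nupr1 (chr7:126625471-126625720, - strand, CARE): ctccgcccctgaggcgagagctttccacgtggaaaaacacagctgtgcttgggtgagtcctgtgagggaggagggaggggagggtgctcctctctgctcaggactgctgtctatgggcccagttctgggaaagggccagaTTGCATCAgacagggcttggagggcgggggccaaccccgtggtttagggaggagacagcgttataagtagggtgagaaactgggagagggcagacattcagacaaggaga

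Poly(A)-selected RNA was counted per gene, and the deposited counts summed to 19165513 to 21735023 in the 4 miR-27a KD libraries and 20021056 to 23542275 in the 4 Scr libraries. Levels below are scaled to library size (CPM, counts per 1000000 counts), in the order of replicates 1 to 4, with mean ± SD over n = 4 where given. At these depths 3 counts, a rough upper bound on the expected count where 0 is observed, equal 0.129 to 0.155 CPM. The assay does not hold mature microRNA, so how far miR-27a itself was lowered is not measured here. All 8 markers of pancreatic cancer cells exceeded 1 CPM in every library, with summed levels of 11530 to 11850 CPM in miR-27a KD and 10830 to 11800 CPM in Scr libraries; Epcam was low among them, at 4.71 to 7.27 CPM in miR-27a KD and 5.40 to 9.67 CPM in Scr libraries. Markers of fibroblasts summed to 0.725 to 1.38 CPM in miR-27a KD and 0.943 to 1.41 CPM in Scr libraries, with 3 of 5 at 0 in all libraries. Markers of leukocytes summed to 2.71 to 4.40 CPM in miR-27a KD and 3.69 to 4.08 CPM in Scr libraries (1 of 5 at 0). Endothelial markers summed to 0.182 to 0.665 CPM in miR-27a KD and 0.340 to 1.03 CPM in Scr libraries (0 of 4 at 0). Acinar and endocrine markers summed to 1.92 to 2.81 CPM in miR-27a KD and 2.48 to 3.98 CPM in Scr libraries (4 of 6 at 0).

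Scr replicate 2 stood apart from the other Scr libraries. Pairs of libraries that included it gave a chi-square of 5.03 to 5.20 per gene, against 1.72 to 1.93 for pairs of miR-27a KD libraries and 1.79 to 2.31 for the other Scr pairs. The chaperones were part of that difference. In Scr replicate 2 the level was the lowest of the 4 Scr libraries for 12 of the 13 chaperones, whereas this held for 31.6% of the 11797 tested genes. It was below all 4 miR-27a KD libraries for 8 of the 13, and for 36.6% of all tested genes. The median chaperone was lower there by 0.22 on the log2 scale than the mean of the other 3 Scr libraries, against a median of -0.00089 over all tested genes. Counts of calls are therefore given with all 8 libraries and without Scr replicate 2, and so are the values of several genes it touches. The labels give no reason to leave this library out, and it was marked out by these same counts. Without it the spread among Scr libraries narrows, for Hspa5 from an SD of 88.6 to 18.6 CPM. Adjusted p-values without Scr replicate 2 follow from this choice and are given as description only.

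**Figure D1:**
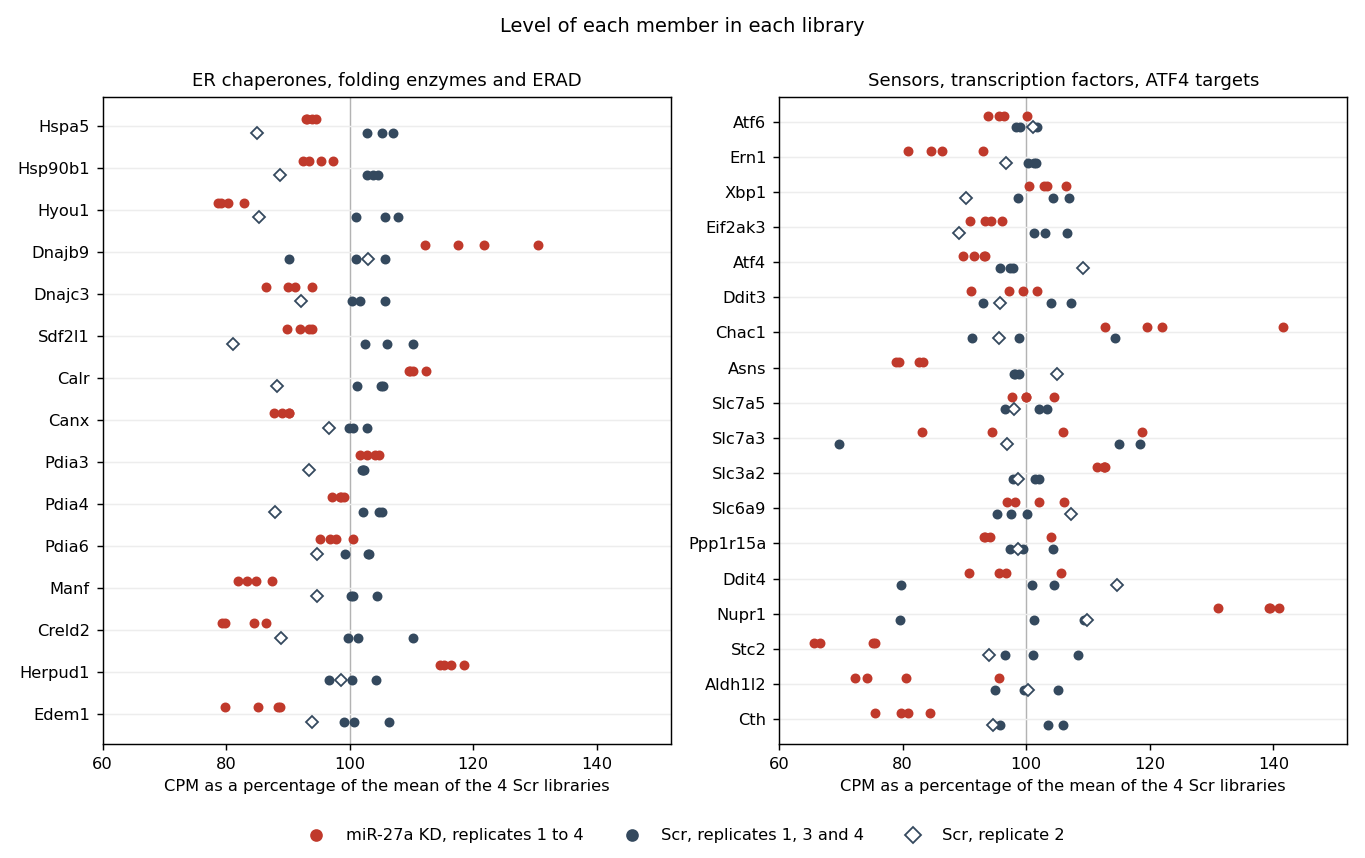
CPM of each of the 33 genes in each library as a percentage of the mean of the 4 Scr libraries, one row per gene, with miR-27a KD libraries above Scr libraries in each row; open diamonds mark Scr replicate 2. For chaperones such as Hspa5, Hsp90b1 and Sdf2l1 the diamond lies left of the miR-27a KD points and the other 3 Scr points lie right of them, while Herpud1, Slc3a2 and Nupr1 lie to the right in miR-27a KD and Stc2, Asns and Cth to the left.

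Across all 33 genes, edgeR's quasi-likelihood test called 6 higher and 12 lower in miR-27a KD cells at a Benjamini-Hochberg adjusted p under 0.05, and 15 were not called. Of all 11797 genes tested, 47.9% were called, 23.8% higher and 24.1% lower, so that the share called in the set was near that of all genes, with more of the calls lower than higher. The median log2 fold change was -0.058 over the 33 genes and 0.0017 over all tested genes. Without Scr replicate 2 the set gave 6 higher and 18 lower, with 50.6% of 11874 tested genes called (25.3% higher and 25.3% lower). Every gene called with all libraries was called in the same direction without it, and Hspa5, Hsp90b1, Sdf2l1, Pdia4, Pdia6 and Eif2ak3 were added, all lower. In such bulk RNA, fewer cells with a transcript and less of it per cell cannot be told apart. The changes were small: the called genes ranged from a log2 fold change of -0.50 for Stc2 to 0.46 for Nupr1. Groups did not overlap for 5 genes above and 10 genes below Scr, while 42.2% of all tested genes were separated, 21.0% above and 21.1% below.

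Among the 13 ER chaperones and folding enzymes, 5 fell in miR-27a KD cells (Hyou1, Creld2, Manf, Canx and Dnajc3), 2 rose (Dnajb9 and Calr) and 6 were not called. Their median log2 fold change was -0.095 with all libraries. Without Scr replicate 2, 10 fell, 2 rose and 1, Pdia3, was not called, at a median of -0.17. Shares over all tested genes were 23.8% higher and 24.1% lower with all libraries, and 25.3% each without Scr replicate 2. The KD libraries were close together for the chaperones: their mean log2 CPM over the 13 genes, relative to the mean of all 8 libraries, was -0.036, -0.039, -0.025 and -0.053. The Scr libraries gave 0.083, -0.10, 0.094 and 0.077. Thus the mean of the chaperones in Scr replicate 2 lay below all 4 miR-27a KD libraries and that of the other 3 Scr libraries above them.

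**Figure D2:**
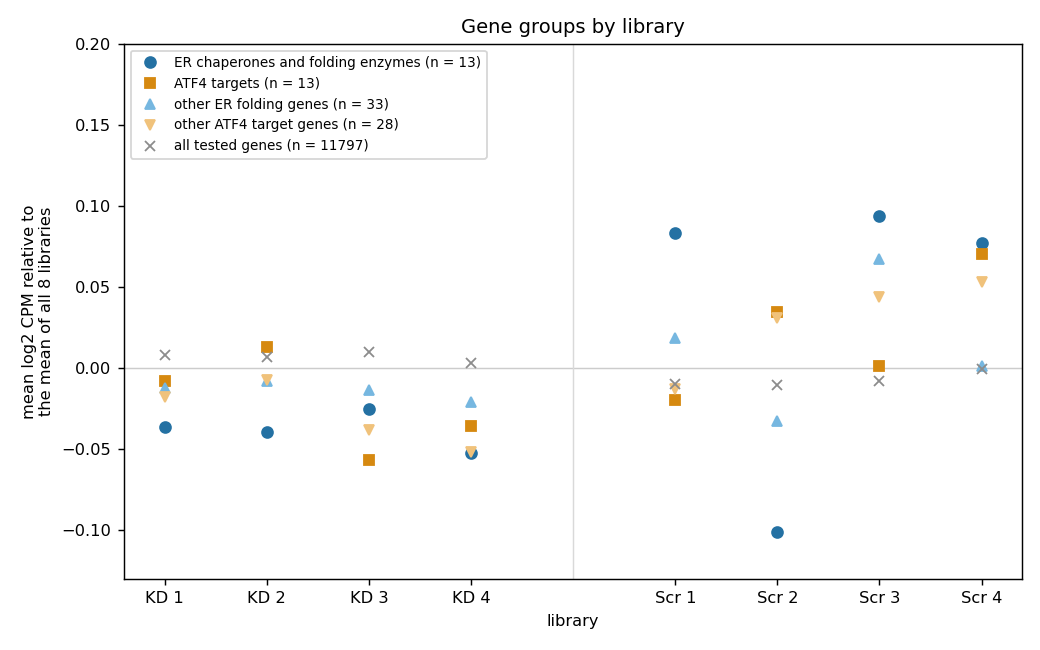
Mean log2 CPM of gene groups in each library, relative to the mean of all 8 libraries; miR-27a KD libraries are on the left and Scr libraries on the right. The 13 chaperones (circles) run from -0.053 to -0.025 in miR-27a KD and reach 0.077 to 0.094 in Scr replicates 1, 3 and 4, but -0.10 in Scr replicate 2; the crosses for all tested genes stay between -0.010 and 0.010.

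Hspa5 encodes BiP, the ER member of the HSP70 chaperones and the protein that holds the sensors inactive. Its levels were 817, 810, 809 and 824 CPM in miR-27a KD libraries and 931, 739, 916 and 894 CPM in Scr libraries. All 4 miR-27a KD values lay between Scr replicate 2 and the other Scr values, so the groups overlapped through that library alone. The log2 fold change was -0.095 (SE 0.044, adjusted p = 0.0790) with all libraries and -0.17 (SE 0.018, adjusted p = 9.60e-12) without Scr replicate 2. Hsp90b1, the ER paralog of HSP90 known as GRP94, showed the same layout, with 979, 988, 1010 and 1030 CPM in miR-27a KD and 1089, 939, 1099 and 1107 CPM in Scr libraries. Its log2 fold change of -0.079 (adjusted p = 0.0712) became -0.13 (adjusted p = 6.02e-09) without Scr replicate 2. Exons of Hsp90b1 share 632 bases with other annotated genes, 415 of them on the opposite strand.

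Hyou1, also called GRP170, exchanges the nucleotide on BiP and was the chaperone with the largest fall. It had 233, 223, 221 and 226 CPM in miR-27a KD libraries and 304, 240, 298 and 284 CPM in Scr libraries. Every miR-27a KD value lay below every Scr value, with Scr replicate 2 nearest to them. The log2 fold change was -0.32 (SE 0.046, adjusted p = 6.29e-06), and -0.39 (adjusted p = 5.57e-21) without Scr replicate 2. Creld2, an ER stress-induced protein with EGF-like domains, had 56.4, 57.6, 52.9 and 53.2 CPM in miR-27a KD against 73.4, 59.2, 67.5 and 66.4 CPM in Scr libraries. Manf, a small ER-resident and secreted protein that binds BiP, had 141, 143, 148 and 139 CPM in miR-27a KD against 177, 160, 170 and 170 CPM in Scr libraries. Neither gene's groups overlapped, and the log2 fold changes were -0.28 for Creld2 (adjusted p = 1.03e-04) and -0.24 for Manf (adjusted p = 1.02e-06). Manf shares 326 exon bases with other genes, 312 of them on the opposite strand.

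The J-domain partners of BiP moved in opposite directions. Dnajb9 (ERdj4), a target of XBP1 that feeds back on IRE1, had 17.7, 18.3, 19.7 and 16.9 CPM in miR-27a KD libraries against 13.6, 15.5, 15.2 and 15.9 CPM in Scr libraries. Dnajc3 (p58IPK), which also restrains PERK, had 98.2, 96.9, 101 and 93.1 CPM in miR-27a KD against 109, 99.3, 114 and 108 CPM in Scr libraries. Dnajb9 was higher in every miR-27a KD library than in any Scr library (log2 fold change 0.27, SE 0.071, adjusted p = 3.32e-03), and Scr replicate 2 did not stand out for it, at 104% of the mean of the other Scr libraries. Dnajc3 fell by 0.15 on the log2 scale (adjusted p = 2.91e-03), with overlap through Scr replicate 2. Sdf2l1, a partner of ER J-domain proteins, had 27.1, 26.9, 26.5 and 25.9 CPM in miR-27a KD against 29.6, 23.4, 30.6 and 31.8 CPM in Scr libraries. Scr replicate 2 reached 76.25% of the other Scr mean for Sdf2l1, the lowest share among the 33 genes, and the call depended on it. The log2 fold change of Sdf2l1 was -0.12 (adjusted p = 0.172) with Scr replicate 2 and -0.20 (adjusted p = 1.49e-03) without it.

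The lectin chaperones calnexin and calreticulin, which bind glycoproteins in the same cycle, also separated. Canx had 790, 812, 801 and 812 CPM in miR-27a KD libraries against 905, 870, 925 and 899 CPM in Scr libraries, without overlap, and a log2 fold change of -0.16 (SE 0.022, adjusted p = 2.14e-06). Calr had 787, 789, 793 and 808 CPM in miR-27a KD against 755, 634, 758 and 728 CPM in Scr libraries, again without overlap but in the other direction. Its log2 fold change of 0.14 (SE 0.037, adjusted p = 2.55e-03) was 0.089 (adjusted p = 5.01e-05) without Scr replicate 2. Medians of the tested genes on their own chromosomes were -0.085 for Hyou1 and Manf and 0.096 for Dnajb9. Calr lies on chromosome 8, where the median log2 fold change of 650 tested genes was 0.21; the part of this shift in the value for Calr was not tested.

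None of the 3 protein disulfide isomerases was called with all libraries. Pdia3 (ERp57), the isomerase that works with both lectins, had 823, 803, 812 and 827 CPM in miR-27a KD against 807, 738, 808 and 805 CPM in Scr libraries, and it was not called with or without Scr replicate 2 (adjusted p = 0.132 and 0.426). Pdia4 (ERp72) had 327, 321, 325 and 325 CPM in miR-27a KD against 347, 290, 346 and 337 CPM in Scr libraries. Pdia6 (P5) had 305, 297, 314 and 302 CPM in miR-27a KD against 310, 295, 321 and 322 CPM in Scr libraries. Both overlapped and were not called with all libraries (log2 fold changes -0.025 and -0.036, adjusted p = 0.617 and 0.309). Without Scr replicate 2 they were called lower, by 0.081 for Pdia4 (adjusted p = 1.12e-03) and 0.061 for Pdia6 (adjusted p = 0.0212) on the log2 scale. The groups of Pdia6 still overlapped then. Pdia4 lies on chromosome 6, where the median log2 fold change of 556 tested genes was -0.11 with all libraries. The part of this shift in its value was not tested.

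Of the 7 chaperones with an ERSE in the window shown above, 3 fell and 1, Calr, rose with all libraries; 6 fell and Calr rose without Scr replicate 2. Scr replicate 2 was the lowest Scr library for all 7. It was also the lowest for Sdf2l1, Pdia3 and Pdia4, chaperones whose windows held no ERSE, and for Hyou1 and Manf, which had no window. Dnajb9, with no ERSE in its window, was the exception. Another 10 tested genes outside the set had an ERSE, of which 3 were called higher and 2 lower, and Scr replicate 2 was lowest for 4 of these. Per kilobase of exon, Calr had the highest level of the 33 genes in miR-27a KD cells (276 CPM per kilobase in miR-27a KD and 250 in Scr), followed by Pdia3 (260 and 252) and Hsp90b1 (249 and 263). In Scr cells Hsp90b1 had the highest level, with Pdia3 and Calr next and close to each other.

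**Figure D3:**
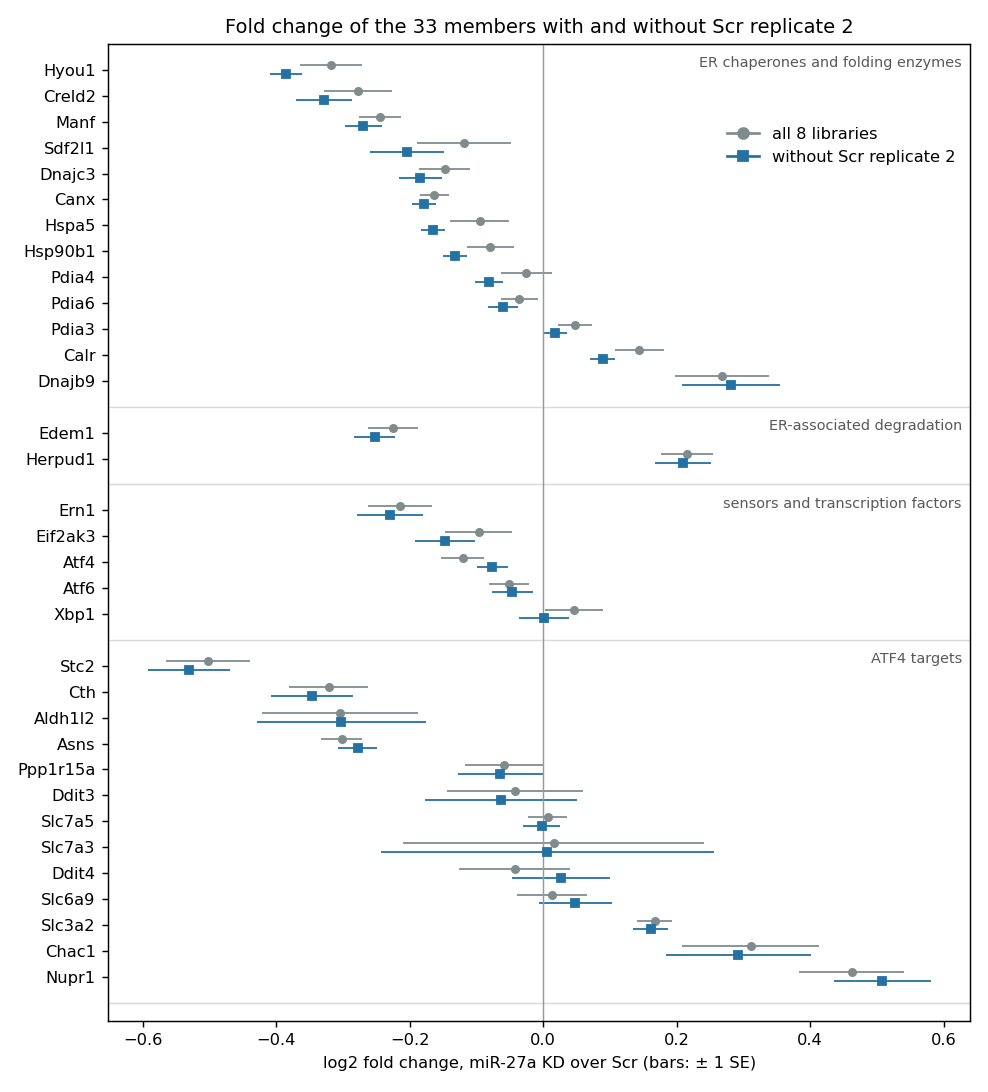
Log2 fold change of miR-27a KD over Scr for the 33 genes by role, from edgeR with all 8 libraries (grey circles) and without Scr replicate 2 (blue squares); bars are 1 standard error to each side. Without Scr replicate 2, 12 of the 13 chaperones have a shorter bar and a value further to the left, as Hspa5 at -0.17 in place of -0.095. Dnajb9 is the exception. Scr replicate 2 was the lowest Scr library for these 12 chaperones, so leaving it out moves their values to the left by construction. The called ATF4 targets keep their side of 0.

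The 2 ERAD genes moved in opposite directions, both without overlap. Herpud1, a membrane component of the HRD1 ubiquitin ligase complex, had 59.2, 57.6, 57.3 and 58.1 CPM in miR-27a KD libraries against 48.3, 49.3, 52.1 and 50.2 CPM in Scr libraries (log2 fold change 0.22, SE 0.039, adjusted p = 8.77e-05). Edem1, which draws misfolded glycoproteins out of the calnexin cycle, had 129, 124, 116 and 128 CPM in miR-27a KD against 146, 136, 144 and 154 CPM in Scr libraries (log2 fold change -0.23, SE 0.037, adjusted p = 3.18e-05). Herpud1 is on chromosome 8, with the median of 0.21 given above, and Edem1 on chromosome 6, where the median of 556 tested genes was -0.11. Both calls held without Scr replicate 2.

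None of the 5 sensors and transcription factors rose. Ern1, which encodes the kinase and ribonuclease IRE1, fell to 37.8, 34.4, 32.9 and 35.2 CPM in miR-27a KD libraries, against 41.2, 39.4, 41.4 and 40.8 CPM in Scr libraries, without overlap (log2 fold change -0.21, SE 0.048, adjusted p = 8.40e-04). Its substrate Xbp1 was not called, with 69.4, 71.1, 71.4 and 73.5 CPM in miR-27a KD against 68.1, 62.3, 72.1 and 73.8 CPM in Scr libraries (adjusted p = 0.408); counts per gene do not separate spliced from unspliced Xbp1. Atf6 had 116, 112, 109 and 111 CPM in miR-27a KD against 118, 117, 115 and 114 CPM in Scr libraries, with overlap and an adjusted p of 0.167. Eif2ak3, the gene of PERK, had 43.9, 43.4, 44.7 and 42.3 CPM in miR-27a KD against 48.0, 41.4, 49.6 and 47.1 CPM in Scr libraries. It was called lower without Scr replicate 2 (log2 fold change -0.15, adjusted p = 4.52e-03) but not with it (-0.097, adjusted p = 0.117). Of its exon bases, 485 are shared with a gene on the opposite strand. Eif2ak3 also lies on chromosome 6, with the median of -0.11 given for Edem1.

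Atf4 itself fell slightly. It had 271, 272, 267 and 262 CPM in miR-27a KD libraries against 284, 318, 285 and 279 CPM in Scr libraries. The groups did not overlap, and here Scr replicate 2 was the highest Scr library, at 113% of the mean of the other 3. The log2 fold change was -0.12 (SE 0.033, adjusted p = 4.04e-03) and -0.076 (adjusted p = 3.87e-03) without Scr replicate 2. These are mRNA levels; ATF4 is controlled largely through its translation, which the assay does not measure.

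**Figure D4:**
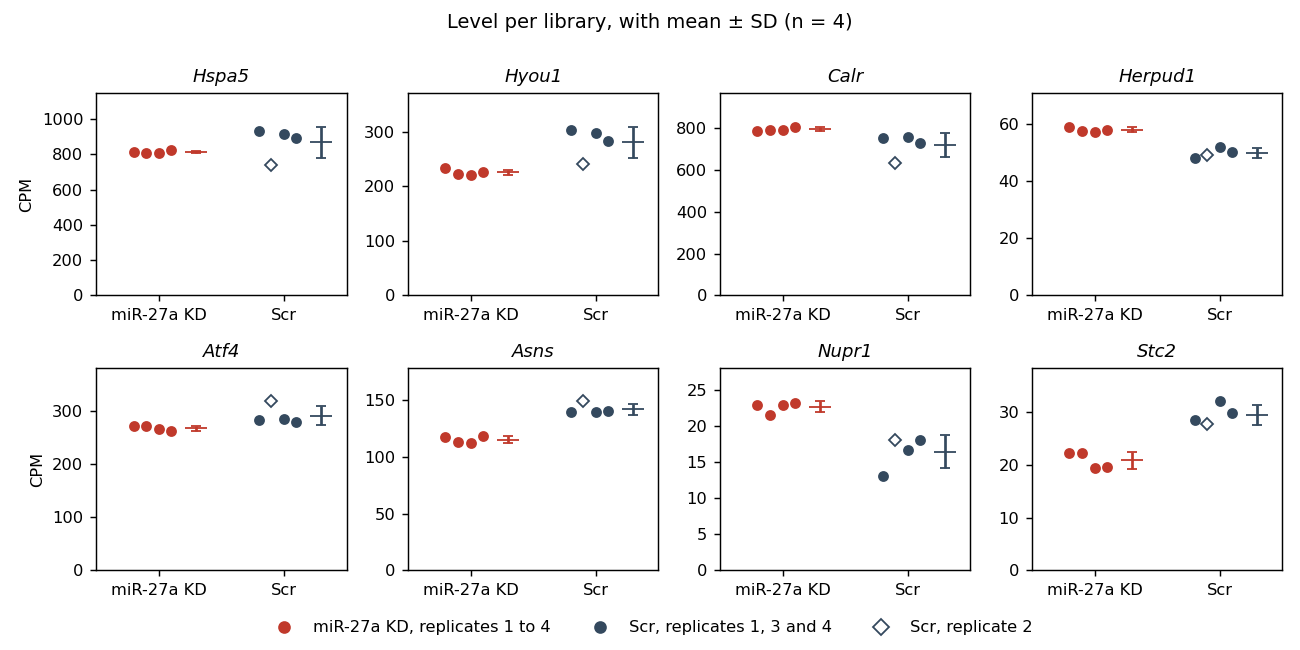
CPM of 8 genes in each library, miR-27a KD left of Scr, with the mean and SD of 4 libraries beside the points; axes start at 0 and the open diamond is Scr replicate 2. Hspa5 overlaps through Scr replicate 2; the other 7 genes do not, with Calr, Herpud1 and Nupr1 higher and Hyou1, Atf4, Asns and Stc2 lower in miR-27a KD.

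The 13 ATF4 targets had no common direction. Nupr1, Chac1 and Slc3a2 rose, Stc2, Cth, Aldh1l2 and Asns fell, and the other 6 were not called. These counts were near the shares over all tested genes, 23.8% higher and 24.1% lower. The median log2 fold change of the 13 genes was -0.042 with all libraries and -0.0022 without Scr replicate 2. The same 7 genes were called in the same directions both times. The mean over the 13 genes, relative to all 8 libraries, was -0.0078, 0.013, -0.057 and -0.036 in miR-27a KD and -0.019, 0.035, 0.0015 and 0.071 in Scr libraries, which overlap. Scr replicate 2 was the lowest Scr library for 2 of the 13 and the highest for 4, against 31.6% of all tested genes in each case.

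The genes that fell were Asns and Cth of amino acid synthesis, Aldh1l2 of one-carbon metabolism, and Stc2. Asns, asparagine synthetase, had 117, 113, 112 and 118 CPM in miR-27a KD libraries against 139, 149, 139 and 140 CPM in Scr libraries (log2 fold change -0.30, SE 0.031, adjusted p = 4.19e-08). Cth, cystathionine gamma-lyase of cysteine synthesis, had 20.9, 21.2, 22.2 and 19.8 CPM in miR-27a KD against 25.1, 24.8, 27.2 and 27.8 CPM in Scr libraries (log2 fold change -0.32, adjusted p = 1.05e-04). Neither overlapped between groups, and Asns lies on chromosome 6, with the median of -0.11 given for Edem1. Aldh1l2, a mitochondrial folate enzyme, was at the edge, with 4.61, 4.25, 4.14 and 5.47 CPM in miR-27a KD against 5.44, 5.74, 5.70 and 6.02 CPM in Scr libraries. Its groups overlapped (log2 fold change -0.30, SE 0.12, adjusted p = 0.0354), it shares 1056 exon bases with a coding gene on the opposite strand, and DESeq2 did not call it (adjusted p = 0.0695). Leaving out 1 library ended its call in 5 of 8 cases. Stc2, the secreted glycoprotein stanniocalcin 2, had the largest fall of the set, with 22.2, 22.3, 19.4 and 19.7 CPM in miR-27a KD against 28.5, 27.7, 32.0 and 29.9 CPM in Scr libraries (log2 fold change -0.50, SE 0.063, adjusted p = 7.68e-07).

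Of the 4 amino acid transporter genes, 1 rose and 3 were not called. Slc3a2, the CD98 heavy chain that carries light-chain transporters to the membrane, rose to 179, 178, 178 and 177 CPM in miR-27a KD libraries, against 155, 156, 162 and 161 CPM in Scr libraries (log2 fold change 0.17, SE 0.026, adjusted p = 1.47e-05). Its light chain Slc7a5 (LAT1) had 183, 175, 171 and 175 CPM in miR-27a KD against 181, 172, 179 and 169 CPM in Scr libraries and was not called (log2 fold change 0.0070, SE 0.029, adjusted p = 0.866). The median log2 fold change of tested genes was 0.11 on chromosome 19, which holds Slc3a2, and 0.21 on chromosome 8, which holds Slc7a5; the part of these shifts in the values of both genes was not tested. Slc6a9, a glycine transporter, averaged 30.3 ± 1.24 CPM in miR-27a KD and 30.0 ± 1.56 CPM in Scr libraries (adjusted p = 0.861), and 1555 of its exon bases are shared with genes on the opposite strand. Slc7a3, a transporter of cationic amino acids, was the lowest gene of the set, with 1.43, 1.61, 1.12 and 1.28 CPM in miR-27a KD against 1.55, 1.31, 0.943 and 1.60 CPM in Scr libraries (log2 fold change 0.016, adjusted p = 0.961), and its SE of 0.23 on the log2 scale leaves changes of a similar size undetectable here.

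The stress effectors were divided. Nupr1, a chromatin-associated protein induced by stress in the pancreas, had the largest rise of the set, with 23.0, 21.6, 22.9 and 23.2 CPM in miR-27a KD libraries against 13.1, 18.1, 16.7 and 18.0 CPM in Scr libraries. The groups did not overlap, and Scr replicate 1 was the lowest (log2 fold change 0.46, SE 0.078, adjusted p = 4.12e-05). Chac1, which degrades glutathione, had 7.42, 9.32, 7.86 and 8.02 CPM in miR-27a KD against 7.53, 6.30, 6.00 and 6.51 CPM in Scr libraries, with a slight overlap (log2 fold change 0.31, SE 0.10, adjusted p = 0.0161). It was not called without miR-27a KD replicate 2 (adjusted p = 0.0766) or without Scr replicate 3 (adjusted p = 0.0575).

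Ddit3, the gene of CHOP, was not called, at 6.00 ± 0.283 CPM in miR-27a KD and 6.16 ± 0.414 CPM in Scr libraries (log2 fold change -0.042, SE 0.10, adjusted p = 0.758). Of its exon bases, 186 are shared with other annotated records, 81 of them on the opposite strand. Ppp1r15a (GADD34), the phosphatase subunit that reverses eIF2α phosphorylation, averaged 21.0 ± 1.15 CPM in miR-27a KD and 21.8 ± 0.672 CPM in Scr libraries (adjusted p = 0.442). Ddit4 (REDD1), an inhibitor of mTORC1, had 19.1, 21.1, 19.4 and 18.1 CPM in miR-27a KD against 16.0, 23.0, 20.2 and 20.9 CPM in Scr libraries (adjusted p = 0.701). None of these 3 was called with or without Scr replicate 2.

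The 3 genes with the CARE letters in the windows printed above, Chac1, Nupr1 and Herpud1, were all called higher. The call of Chac1 depended on single libraries, as given above. Herpud1, with a log2 fold change of 0.22, lies on chromosome 8, where the median was 0.21. Of 62 other tested genes with these letters, 8 were called higher and 13 lower, at a median log2 fold change of -0.017. These include further ATF4 targets outside the set. Slc7a11 was called lower (log2 fold change -0.87, adjusted p = 1.50e-12) and Vldlr higher (0.22, adjusted p = 0.0354). Atf3, Got1, Jdp2, Pycr1 and Slc1a4 were not called. Aminoacyl-tRNA synthetases with these letters were also divided. Aars1, on chromosome 8 like Herpud1, was called higher (0.17, adjusted p = 3.17e-06) and Yars1 lower (-0.13, adjusted p = 4.98e-03). Iars1 and Tars1 were not called (adjusted p = 0.343 and 0.318). The called ATF4 targets that fell include Asns and Stc2, whose windows held no match to these 8 letters, and Cth and Aldh1l2, which had no window. An exact search for 1 spelling cannot show that a window lacks a CARE in another spelling.

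The inhibited microRNA pairs with its targets through bases 2 to 8, in capitals here as RefSeq gives the mature sequence (GRCm38.p6 chr8:84208727-84208747, + strand).
mmu-miR-27a-3p: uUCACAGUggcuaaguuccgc
The letters ACTGTGA pair with bases 2 to 8, and ACTGTGAA adds an A opposite base 1. CTGTGAA pairs with bases 2 to 7 and has that A. Target sites were searched as any of these 3 spellings. They were present in the longest annotated 3′ UTR of 12 of the 33 genes (36.4%), against 29.6% of 11035 tested genes with such a UTR. The 3 genes with the 8-base site ACTGTGAA are shown with the bases around it, and the site is in capitals.
Dnajc3 (chromosome 14): tctttcttACTGTGAAtagaaga
Edem1 (chromosome 6): cacgtgcaACTGTGAAtgaccca
Cth (chromosome 3): gaatacctACTGTGAAattcaag
All 3 were called lower in miR-27a KD cells; of all 705 tested genes with the 8-base site, 27.4% were called higher and 23.4% lower. Of the 12 genes with a site, 1 (Dnajb9) was called higher and 7 lower (Hyou1, Dnajc3, Canx, Manf, Edem1, Aldh1l2 and Cth), while over all tested genes with a site 26.1% were higher and 24.4% lower. Of the 21 genes without a site, 5 were called higher and 5 lower (23.8% each), near the 23.4% higher and 25.0% lower of all 7771 tested genes without one.

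The rest of the pathway was described through 5 further lists, which together held 130 tested genes. Of these, 35 were called higher and 38 lower (32 and 42 without Scr replicate 2). Shares over all tested genes were 23.8% higher and 24.1% lower (25.3% each without Scr replicate 2). Among 33 other ER folding genes, 7 rose and 10 fell at a median log2 fold change of -0.040, and Scr replicate 2 was lowest for 16. Fkbp10, a prolyl isomerase of collagen folding, fell to 11.0 ± 0.905 CPM in miR-27a KD, against 19.1 ± 1.49 CPM in Scr libraries (log2 fold change -0.79, adjusted p = 2.05e-08), and its relative Fkbp11 fell by 0.31 (adjusted p = 1.38e-03). Fkbp14 and the J-domain protein Dnajc1 rose, by log2 fold changes of 0.37 and 0.31 (adjusted p = 4.88e-03 and 1.85e-05). Of 24 other ERAD genes, 7 rose and 6 fell, at a median of 0.016. The ubiquitin-conjugating enzyme Ube2g2 rose by 0.24 (adjusted p = 5.54e-05), whereas Selenos (listed as Vimp) and Ufd1 (listed as Ufd1l), both partners of the p97 ATPase, fell by 0.23 and 0.18 (adjusted p = 3.40e-04 and 4.82e-04).

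Of 25 other signalling genes of the response, 10 rose and 4 fell, at a median log2 fold change of 0.062. Wfs1, an ER membrane protein, had 32.2 ± 1.66 CPM in miR-27a KD and 25.8 ± 1.03 CPM in Scr libraries (log2 fold change 0.32, adjusted p = 3.76e-05), and Creb3, a membrane-bound transcription factor, rose by 0.27 (adjusted p = 1.33e-03). Mbtps2, the protease that completes the cutting of ATF6, fell by 0.17 (adjusted p = 6.79e-04), and Eif2b3, a subunit of the factor that phosphorylated eIF2α blocks, by 0.19 (adjusted p = 3.21e-03). Creb3l1, a relative of ATF6 chosen here after its values were seen, had the largest rise of these lists, with 6.14, 6.27, 6.89 and 5.20 CPM in miR-27a KD against 2.86, 3.12, 3.00 and 2.82 CPM in Scr libraries (log2 fold change 1.05, SE 0.13, adjusted p = 4.53e-07).

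Among 28 other ATF4 target genes, 7 rose and 11 fell, at a median of -0.021. Slc7a11, the cystine transporter, fell to 41.3 ± 1.54 CPM in miR-27a KD, against 75.6 ± 5.71 CPM in Scr libraries (log2 fold change -0.87, SE 0.049, adjusted p = 1.50e-12). The transcription factor Cebpb fell by 0.37 (adjusted p = 2.35e-03), while Sesn3, an inhibitor of mTORC1, and Eif4ebp1, a repressor of translation, rose by 0.29 and 0.23 (adjusted p = 2.31e-03 and 2.20e-04). Of 20 aminoacyl-tRNA synthetases, 4 rose and 7 fell, at a median of -0.037 and within -0.15 to 0.24. Wars1 and Aars1 rose by 0.24 and 0.17 (adjusted p = 2.77e-06 and 3.17e-06), and Cars1 and Nars1 fell by 0.15 and 0.14 (adjusted p = 1.20e-04 and 4.45e-05). Eif4ebp1 and Aars1 lie on chromosome 8, where the median log2 fold change of 650 tested genes was 0.21. The part of this shift in their values was not tested.

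**Figure D5:**
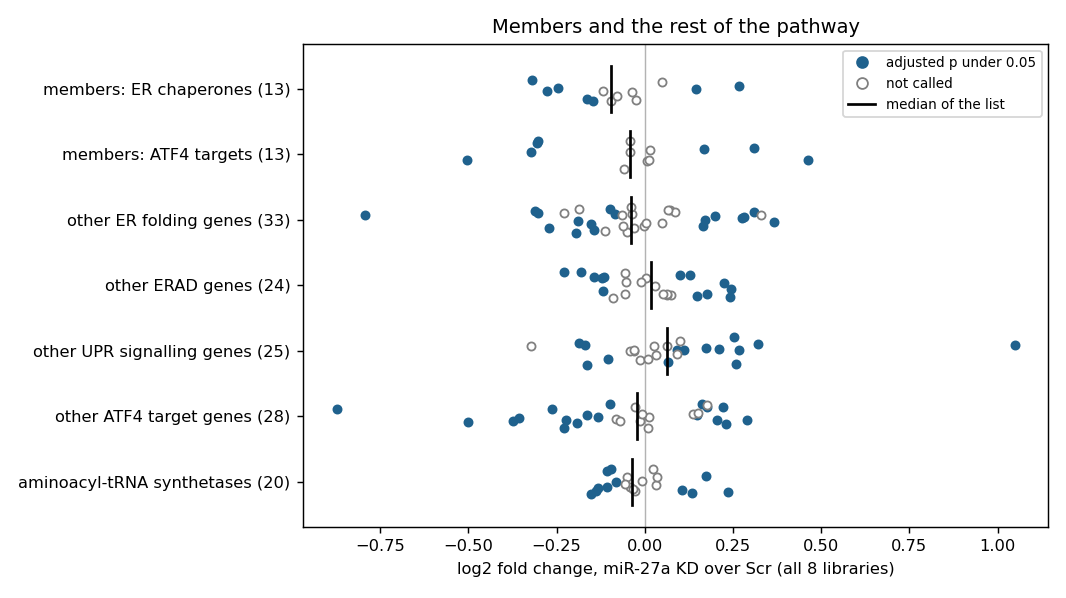
Log2 fold change of miR-27a KD over Scr, all 8 libraries, for the chaperones and ATF4 targets of the set and 5 further lists of the pathway; each point is a gene, filled where the adjusted p was under 0.05, and the black line is the list's median. The medians lie between -0.095 for the chaperones and 0.062 for the signalling genes, with genes on both sides of 0 in each list.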

How the data were processed

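The series gives raw read counts for each gene symbol and library, as the authors deposited them. The submitters' processing notes list the build mm10 and, as tools, STAR, Bowtie, bcl2fastq 2.20, R 4.2.1 and DESeq2 1.36.0, without saying what each did. How reads were assigned to genes, with which annotation and strand setting, is not given in the sources used here. Whether reads of an overlapping gene on the other strand were counted for a gene is therefore not known. Per the labels' protocols, libraries were made with the Illumina Stranded mRNA prep from RNA of integrity number 7 or above and sequenced as paired reads of 59 bases.

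The present comparison used edgeR 4.0.16 in R 4.3.3. Genes were kept by filterByExpr (minimum count 10, total 15, by group), scaled by TMM (factors 0.991 to 1.01) and tested with glmQLFit and glmQLFTest with group as the only term. A gene was called at a Benjamini-Hochberg adjusted p under 0.05 over all tested genes, with no fold threshold. CPM used TMM-scaled library sizes. The fit was tested on simulated counts. Samples were grouped by their titles. The members and lists were chosen with earlier results of these data known. All 33 members are reported. From each further list the rule named up to 2 called genes with the largest rise and 2 with the largest fall at a mean of at least 5 CPM. A gene that this rule takes is not reported here. Alternatives were other scalings, filters, DESeq2 1.42.0, limma 3.58.1 (voom), thresholds, the replicate number as a block and leaving out each library. The replicate numbers of the groups did not pair the libraries. A chi-square of counts between libraries of the same group found none that repeated another, and pairs across the groups were not compared. Exon lengths, overlaps and 3′ UTRs are from GENCODE on GRCm38, and promoters and the microRNA are from RefSeq tables on GRCm38.p6.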

Additional observations from a re-analysis of the deposited data

Results flagged for a closer look

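In groups of 4 libraries, 124 sets of values were searched for a highest or lowest library whose gap to its nearest neighbour was large against the range of the group, which chance gives in about 1 in 20 groups. It was found in 9, and in 6 of these the library was Scr replicate 2. At 1 in 20, chance alone can give several such sets among 124, so a single flag carries little weight. The sets were also not independent, since the mean of the chaperones includes Hsp90b1 and Pdia3. Scr replicate 2 was low for Hsp90b1 (939 CPM), Pdia3 (738 CPM) and the mean log2 CPM of the chaperones (-0.10 relative to all libraries). It was high for Atf4 (318 CPM), Asns (149 CPM) and Eif4ebp1 (62.9 CPM). miR-27a KD replicate 3 was high for Ppp1r15a (22.7 CPM) and the mean log2 CPM of the other signalling genes (0.054), and low for Slc7a11 (39.0 CPM).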

How the results depend on the processing

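Leaving out Scr replicate 2 raised the chaperones called lower to 10 and moved their median log2 fold change to -0.17; over all single left-out libraries these ranged from 5 to 10 and from -0.17 to -0.064, and the cause was not tested. The median of the ATF4 targets ranged from -0.064 to -0.0022, and was -0.0093 without miR-27a KD replicate 4. Members called ranged from 5 to 6 higher and 11 to 18 lower. Against a fold of 1.2, which asks for larger changes, 584 genes were called higher and 523 lower over all tested genes; this left 1 member higher (Nupr1) and 1 lower (Stc2), 0 chaperones in either direction, 1 ATF4 target in each direction, and 1 higher and 2 lower in the 5 further lists. Signs turned for uncalled genes near 0: Pdia4 with library totals as the scaling (0.00066) and, over the single left-out libraries, Pdia4 (-0.081 to 0.00082), Slc7a5 (-0.012 to 0.024), Slc7a3 (-0.13 to 0.11), Slc6a9 (-0.012 to 0.048) and, without Scr replicate 2, Ddit4 (0.027). Aldh1l2 lost its call with library totals (adjusted p = 0.0530) and without miR-27a KD replicate 1, 2 or 3 (0.0639, 0.0946 and 0.106) or Scr replicate 3 or 4 (0.0615 and 0.0807). Chac1 lost its call without miR-27a KD replicate 2 or Scr replicate 3, as given above. Pdia3 was called higher with library totals (adjusted p = 0.0212) or upper-quartile factors (0.0388), and Hspa5 and Hsp90b1 lower with no filter (0.00158 and 0.00533). With the replicate number as a block, Hsp90b1 was called lower (adjusted p = 0.0369), giving 13 members lower; same-numbered libraries did not deviate together (correlations -0.050 to 0.016, 1 of 4 best with its own number). Levels of about 1 CPM, as for Slc7a3, limit what the depth can show.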
